A study of Mus musculus with 24 samples.

Results

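The genes described here build, load and present peptides on major histocompatibility complex (MHC) molecules in the brain of SJL mice. They were 10 genes, H2-K1, H2-D1, B2m, Tap1, Tap2, Psmb8, Psmb9, Cd74, H2-Aa and H2-Ab1, and every probe that the platform annotation assigned to one of them was taken. These were 22 of the 45281 probes on the array, and 10 of 19057 named genes. Frontal cortex and cerebellum were taken from naive mice of the inbred strain SJL/JOrlCrl at 10 weeks of age, and total RNA of each sample was labelled for Illumina bead arrays. The groups were male frontal cortex, female frontal cortex, male cerebellum and female cerebellum, with 6 arrays each, and 12 animals each gave both tissues. No group carried a transgene, an induced disease or a treatment, and the series asked which transcripts differ by sex between the brain regions of a strain used to study autoimmune disease of the central nervous system. A value below is a log2 intensity after background correction and quantile normalization unless another scale is named, and a probe is called detected on an array when its scanner detection p was under 0.05.

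Class I MHC molecules consist of a heavy chain, encoded in the mouse by H2-K1 and H2-D1, and a light chain, beta-2 microglobulin, encoded by B2m. Proteasomes cut cytosolic proteins, the immunoproteasome subunits Psmb8 and Psmb9 change the peptides made, and the transporter formed by Tap1 and Tap2 carries peptides into the endoplasmic reticulum for loading. Class II molecules pair an alpha chain with a beta chain, here H2-Aa and H2-Ab1, and the invariant chain Cd74 guides them to endosomes where peptides are loaded. In healthy brain tissue class I is found on vessels and at low levels on neural cells, whereas class II is largely held by cells of the meninges, the choroid plexus and the spaces around vessels, with little on resting microglia. SJL mice carry the H2s haplotype, and the sequences printed here come from the RefSeq reference strain, C57BL/6J, which carries H2b. Whether the probes match the SJL alleles was not tested, and near-identical class I genes may share a probe's signal, which was not tested either because the probe sequences were not used here.

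On chromosome 17 the genes lie in the MHC region. H2-K1 comes first in the RefSeq order, Psmb9, Tap1, Psmb8 and Tap2 follow one another as neighbours, H2-Ab1 and H2-Aa come next, and H2-D1 lies further along. B2m is on chromosome 2. The files name no genome build for the probes, so no probe coordinates are given. From the RefSeq promoter table, build GRCm38.p6, 7 of the 10 genes were read. It held no row for Tap2 and H2-Ab1, and Cd74 was left out of the search. Stretches directly upstream of the transcription start of both class I heavy chains, the light chain, a class II chain and the shared start region of Tap1 and Psmb9 are shown, because promoters of this pathway are known to respond together to interferon and NF-kB. Letters are lower case except where a searched motif lies, on either strand.

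H2-K1, chr17:34000348-34000527, minus strand: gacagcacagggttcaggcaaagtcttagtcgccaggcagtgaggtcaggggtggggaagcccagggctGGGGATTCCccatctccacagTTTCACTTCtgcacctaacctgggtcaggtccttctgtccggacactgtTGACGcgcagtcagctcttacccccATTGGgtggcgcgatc
H2-D1, chr17:35262914-35263093, plus strand: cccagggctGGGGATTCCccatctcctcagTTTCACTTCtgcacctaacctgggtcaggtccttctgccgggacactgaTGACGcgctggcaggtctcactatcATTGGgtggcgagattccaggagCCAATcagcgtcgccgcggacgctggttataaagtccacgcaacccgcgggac
B2m, chr2:122147507-122147686, plus strand: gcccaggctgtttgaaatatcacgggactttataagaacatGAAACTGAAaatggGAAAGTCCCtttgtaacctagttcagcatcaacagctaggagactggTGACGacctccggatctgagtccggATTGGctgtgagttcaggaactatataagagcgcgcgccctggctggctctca
H2-Aa, chr17:34287824-34288003, minus strand: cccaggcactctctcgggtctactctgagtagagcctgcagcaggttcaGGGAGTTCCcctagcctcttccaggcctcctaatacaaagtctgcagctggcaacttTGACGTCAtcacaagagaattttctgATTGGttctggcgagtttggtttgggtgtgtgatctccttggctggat
Tap1 and Psmb9, the gap between their starts, chr17:34187331-34187555, plus strand: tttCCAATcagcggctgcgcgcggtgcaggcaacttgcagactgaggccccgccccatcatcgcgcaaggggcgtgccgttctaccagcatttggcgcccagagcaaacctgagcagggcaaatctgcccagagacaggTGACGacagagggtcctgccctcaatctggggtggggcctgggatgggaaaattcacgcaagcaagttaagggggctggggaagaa

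The motifs were searched in the 250 bases before each start on both strands. The NF-kB-like letters GGGNNTTNC lie in 13% of 32851 RefSeq promoters of that length. Interferon response letters were searched in a first form, GAAANNGAA, present in 7.13%, and a second form, GAANNGAAA, present in 6.31%. The core TGACG, bound by CREB and ATF proteins, lies in 17.8% and CCAAT, bound by NF-Y, in 33.8%. H2-K1 and H2-D1 hold the same kinds, an NF-kB-like match followed by the second interferon form, TGACG and CCAAT, and 161 of 177 aligned bases of their windows are identical (90.96%). B2m holds the first interferon form beside its NF-kB-like match. H2-Aa holds the NF-kB-like letters and TGACG on both strands, which overlap there, and neither interferon form. Tap1 and Psmb9 share TGACG and CCAAT, and Psmb8 holds none of these letters in the window. A match describes letters and is not shown to be a bound site in these tissues.

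Arrays of the series had 18099 to 19927 detected probes and a median scanner signal of 69.3 to 75.2 units, and arrays of a group correlated at 0.983 to 0.995 over the 21113 probes kept, those detected on at least 6 arrays. All 8 kept cerebellar neuron markers were higher in cerebellum and all 7 kept cortical ones lower there, against 36.8% and 31% of all kept probes. Pcp2, Gabra6 and Neurod1 were kept only through cerebellum arrays and Emx1 only through cortex arrays, so the filter fixed their direction. En2, detected on 16 arrays, averaged 4.71 and 4.57 in male and female cortex. Tbr1, detected on 15, averaged 4.64 and 4.62 in male and female cerebellum. The dimmest detected level was 4.67 to 4.81 per array, so the filter may have fixed the direction of En2 and Tbr1 too, and they add no support. Cbln1, Zic1, Zic2 and Pvalb, and the cortical Lamp5, Camk2a, Bcl11b and Cux2, were detected on all 24 arrays and followed the tissue labels. The mean level of the cortical markers was 6.69 on male cerebellum replicate 3 and 6.65 on female cerebellum replicate 4, against 5.47 to 5.91 on the other cerebellum arrays. Leaving out either of those arrays moved no count of MHC pathway calls by tissue. The labels mark 2 arrays of each group with one tag and 4 with another, called label batch a and label batch b here, and what the tags stand for is not stated. RNA came from whole tissue, so fewer cells of a type and less RNA per cell cannot be told apart. Precision is limited by the number of arrays.

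Of the 22 probes 11 (50%) were kept, against 46.6% of all probes. Of the 11, 10 were detected on all 24 arrays, and the last, the dimmer of the kept Psmb8 probes, on 8. The kept probes stood for 6 genes, H2-D1, B2m, Tap2, Psmb8, Cd74 and H2-Ab1. Of the 11 probes not kept, 5 were detected on no array and 6 on 1 to 5 arrays.

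H2-K1, Tap1, Psmb9 and H2-Aa had no kept probe and so have no tested value. H2-K1, a heavy chain that pairs with the same light chain as H2-D1, had probes detected on 5, 0 and 0 of 24 arrays. Tap1, whose product forms the peptide transporter with that of Tap2, was detected on 2 arrays, both frontal cortex. Psmb9 was detected on 1 array and H2-Aa, the partner of H2-Ab1, on none. Probes of Canx, Hspa5, Psma1, Psma3 and Psma6, which encode chaperones and proteasome subunits that every cell uses, were also detected on 0 arrays, so a probe without detection does not show that the transcript was absent.

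**Figure D1:**
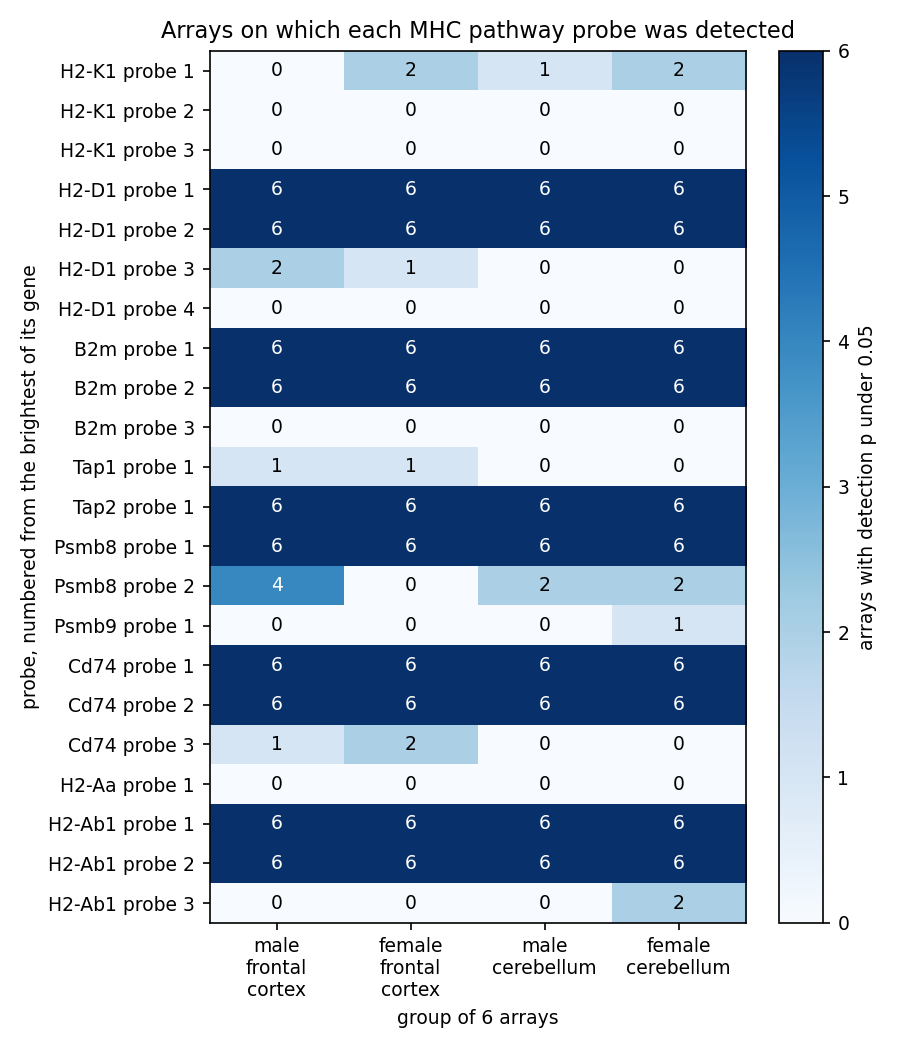
Number of arrays, of 6 per group, on which each of the 22 MHC pathway probes was detected (detection p under 0.05), with probes of a gene numbered from the brightest. Detection was all or nothing for most probes, with 10 probes at 6 of 6 in each group and the dimmer kept Psmb8 probe at 4, 0, 2 and 2.

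Cerebellum was compared with frontal cortex first, averaged over the sexes. Transcripts for the class I heavy chain H2-D1 and the transporter subunit Tap2 were higher in cerebellum, by 1.79-fold on the brighter H2-D1 probe and 1.69-fold, and the immunoproteasome subunit Psmb8 was lower there by 1.28-fold. The light chain B2m, the invariant chain Cd74 and the class II beta chain H2-Ab1 did not pass the test. Of the 11 probes, 4 passed (36.4%), 3 higher and 1 lower, by limma with Benjamini-Hochberg adjustment over all 21113 kept probes at 0.05, whereas 67.8% of all kept probes passed, 36.8% higher and 31% lower. The median absolute tissue difference was 0.07 over the 11 probes and 0.30 over all kept probes. Only Tap2 had cerebellum and cortex arrays that did not overlap over all 24, a pattern held by 27.3% of all kept probes. In females 1 of the 11 did not overlap between tissues, against 35.9% of all kept probes, and in males 4, against 38.6%. In females alone 4 of the 11 passed, against 57.2% of all kept probes, and in males alone 5 passed, against 58.1%. Under median scaling, used instead of quantile normalization, 6 of the 11 passed, 3 higher and 3 lower, and the share of higher calls over all probes went from 54.3% to 43.8%.

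Among the 11 kept probes the tissue difference was largest for the brighter H2-D1 probe (0.84), followed by Tap2 (0.76) and the dimmer H2-D1 probe (0.60). The brighter one, ILMN_2462745, ran from 7.26 to 7.86 with a median of 7.64 in male frontal cortex, and from 7.38 to 8.45 with a median of 7.67 in female frontal cortex. The same probe ran from 8.31 to 8.64 (median 8.46) in male cerebellum and from 8.33 to 9.08 (median 8.66) in female cerebellum. Male arrays of the tissues did not overlap, and in females replicate 6 of frontal cortex, at 8.45, lay within the cerebellum range. The difference was 0.84 ± 0.10 (SE, n = 12 arrays per tissue, 95% interval 0.63 to 1.05, limma adjusted p = 4e-08), and cerebellum was higher in 12 of 12 animals. It was 0.82 in females (adjusted p = 2.1e-05) and 0.86 in males (adjusted p = 9.9e-06) in the same limma fit, and 0.74 within label batch a and 0.89 within label batch b.

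The dimmer H2-D1 probe, ILMN_2944011, moved the same way. Its group means were 5.32 ± 0.18 in male frontal cortex, 5.62 ± 0.30 in female frontal cortex, 6.05 ± 0.26 in male cerebellum and 6.08 ± 0.30 in female cerebellum (SD, n = 6). Cerebellum was higher by 0.60 on average (limma adjusted p = 7.4e-06) and in 12 of 12 animals, with 0.47 in females and 0.73 in males. The call in females was lost in label batch b alone (0.36, adjusted p = 0.080). Without background correction the averaged difference was 0.27 and still passed. Both probes had their highest value on the same array, female cerebellum replicate 6, at 9.08 and 6.66. The remaining H2-D1 probes were detected on 3 and 0 arrays and were not tested.

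Tap2, on which the supply of peptide to class I depends, separated the tissues completely. Its probe lay between 5.83 and 6.44 on the 12 frontal cortex arrays and between 6.82 and 7.23 on the 12 cerebellum arrays, and group medians were 6.23 (male) and 6.26 (female) in cortex and 7.03 (male) and 6.91 (female) in cerebellum. Every cerebellum array was above every cortex array. The difference was 0.76 ± 0.07 (SE, 95% interval 0.61 to 0.90, limma adjusted p = 2e-10), with 0.74 in females and 0.77 in males, and it was 0.80 and 0.73 within label batches a and b. Without background correction it was 0.45 and still passed.

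**Figure D2:**
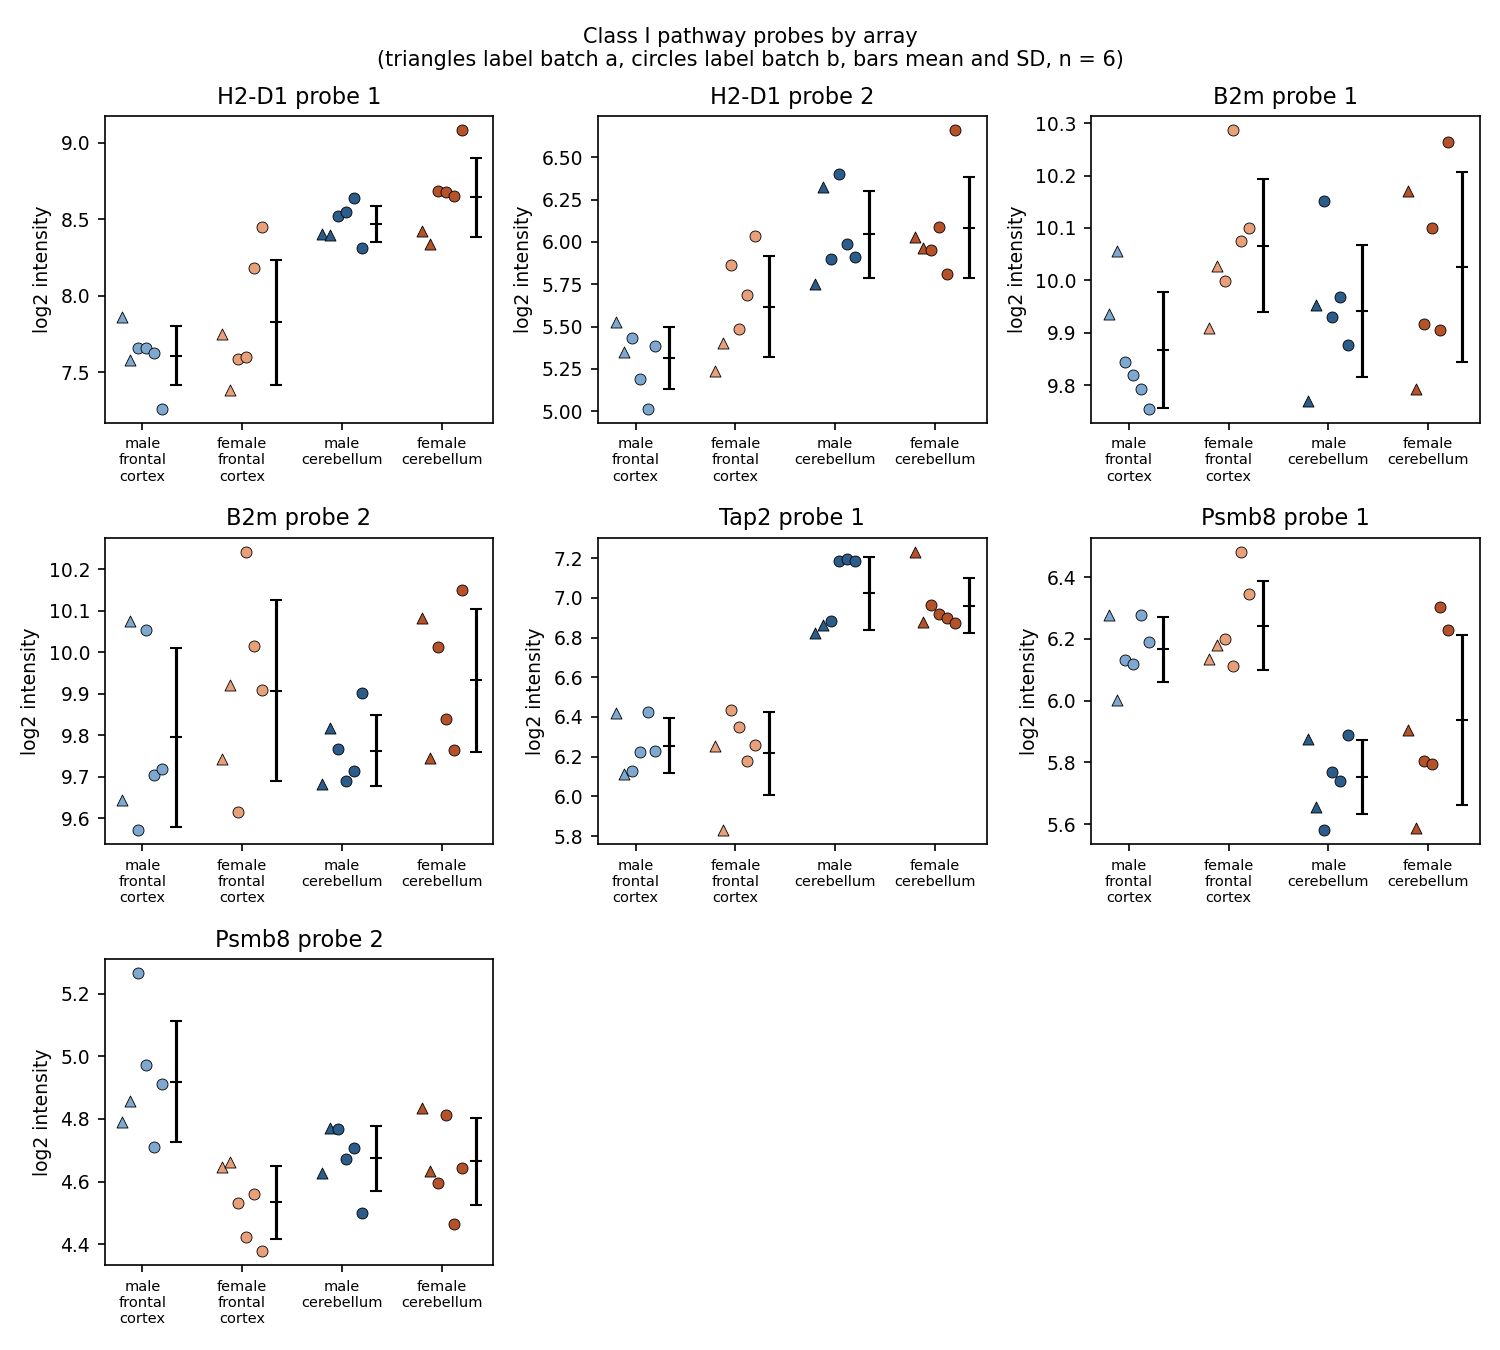
Log2 intensity of the kept class I pathway probes on each of the 24 arrays by group, with the mean and SD beside the points (n = 6), triangles for label batch a and circles for label batch b. Tap2 values lay at or below 6.44 in frontal cortex and at or above 6.82 in cerebellum, both H2-D1 probes were raised in cerebellum, and the B2m probes overlapped across all groups.

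Psmb8, the immunoproteasome subunit that replaces Psmb5, went the other way. Its brighter probe, ILMN_1226683, ran from 6.00 to 6.28 (median 6.16) in male frontal cortex and from 6.11 to 6.48 (median 6.19) in female frontal cortex. In male cerebellum it ran from 5.58 to 5.89 (median 5.75) and in female cerebellum from 5.59 to 6.30 (median 5.85). Male arrays of the tissues did not overlap, while some female cerebellum arrays reached the cortex range. Cerebellum was lower by 1.28-fold (log2 difference -0.36 ± 0.07 SE, 95% interval -0.51 to -0.21, limma adjusted p = 6.4e-05), and it was lower in all 12 animals. Without background correction it was -0.18 and still passed. The difference was -0.31 in females (adjusted p = 0.011) and -0.41 in males (limma adjusted p = 0.00084). Within label batch a alone these sex-specific calls had adjusted p = 0.088 and 0.11, and in batch b alone the call in females had adjusted p = 0.085.

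The Psmb8 probes did not give the same picture. The dimmer one, ILMN_2693940, was detected on 4, 0, 2 and 2 of 6 arrays of male frontal cortex, female frontal cortex, male cerebellum and female cerebellum, with group means of 4.92 ± 0.19, 4.53 ± 0.12, 4.67 ± 0.10 and 4.66 ± 0.14 (SD, n = 6). The dimmest level at which any probe was detected was 4.67 to 4.81 per array, so this probe lay at the edge of detection. Its tissue difference averaged over sexes was -0.06 (limma adjusted p = 0.42). In males it was -0.24 (limma adjusted p = 0.017), a call lost without male frontal cortex replicate 3, which left -0.17 (adjusted p = 0.064), and lost with no background correction (-0.09, adjusted p = 0.054). Deviations of the pair from the mean of their group and label batch correlated at -0.35 over 24 arrays (Spearman -0.27).

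B2m, the light chain common to all class I molecules, did not pass in either direction. Its brighter probe, ILMN_1216746, had group means of 9.87 ± 0.11 in male frontal cortex, 10.07 ± 0.13 in female frontal cortex, 9.94 ± 0.13 in male cerebellum and 10.03 ± 0.18 in female cerebellum (SD, n = 6). All groups overlapped. The tissue difference was 0.02 (95% interval -0.11 to 0.14, limma adjusted p = 0.82), and cerebellum was higher in 6 of 12 animals. For the other probe, ILMN_2739999, the interval was -0.15 to 0.15. Under median scaling, which moved the median of all probes from 0.03 to -0.04, both B2m probes were lower in cerebellum, with a log2 difference of -0.18 for the brighter (limma adjusted p = 0.029) and -0.20 for the other (limma adjusted p = 0.046).

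The class II genes showed no tissue difference past the test, and in frontal cortex their arrays were spread widely. The SD over the arrays of a group was 0.22 to 0.66 for class II probes and 0.11 to 0.41 for the class I pathway probes in frontal cortex, whereas in cerebellum these ranges were 0.11 to 0.40 and 0.085 to 0.30. Cd74 probe ILMN_1221817 ran from 6.27 to 7.05 (median 6.47) in male frontal cortex, from 5.56 to 7.38 (median 6.32) in female frontal cortex, from 5.93 to 6.89 (median 6.17) in male cerebellum and from 6.24 to 6.83 (median 6.43) in female cerebellum. The female frontal cortex range covered those of all the other groups. Its tissue difference was -0.09 ± 0.16 (SE, 95% interval -0.41 to 0.23, limma adjusted p = 0.64). Cd74 lies outside the MHC, on chromosome 18. Its second probe gave -0.07 (95% interval -0.35 to 0.22). H2-Ab1, the class II beta chain, gave -0.02 (95% interval -0.27 to 0.23) and -0.03 (95% interval -0.26 to 0.20) for its kept probes.

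The label batches went in opposite directions for the invariant chain. Cd74 was higher in cerebellum by 0.44 and 0.32 for its probes in label batch a, with adjusted p = 0.021 and 0.029 in limma fitted to that batch alone, and lower by -0.35 and -0.26 in label batch b, where neither passed. In male cerebellum the brighter probe averaged 6.79 on the batch a arrays and 6.06 on the batch b arrays. Choroid plexus markers averaged 7.66 and 7.07 on the male cerebellum arrays of batch a and 5.78 to 6.32 on those of batch b. In female cerebellum they averaged 8.17 and 8.79 in batch a and 5.92 to 7.28 in batch b, where the brighter Cd74 probe averaged 6.63 in batch a and 6.39 in batch b and the other went the opposite way, with 6.30 and 6.44. The part of choroid plexus in the Cd74 values was not tested. With the batch as a block, the averaged difference did not pass for any class II probe. H2-Ab1 probe ILMN_2631423 gave 0.25 in batch a and -0.16 in batch b, with no call in either.

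**Figure D3:**
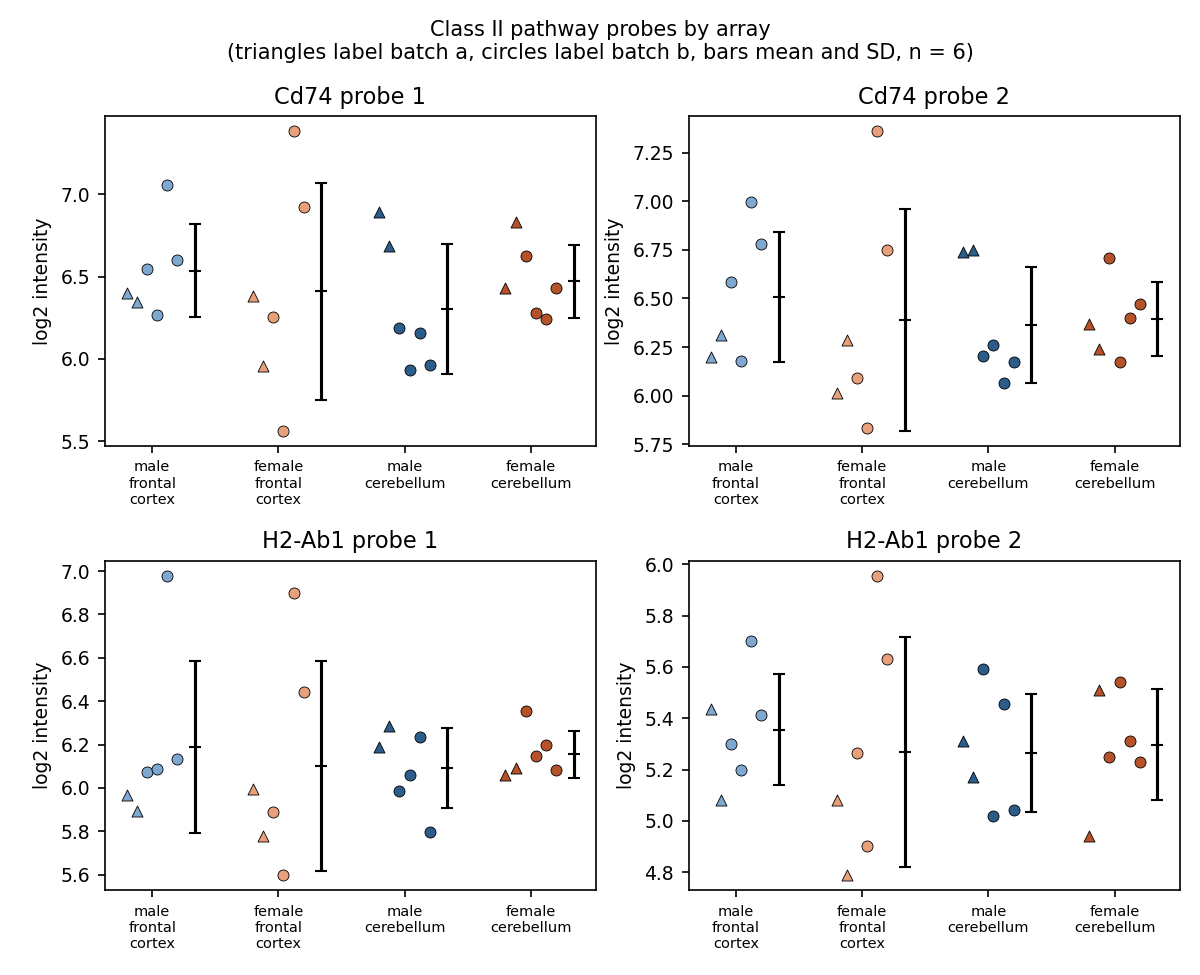
Log2 intensity of the kept Cd74 and H2-Ab1 probes on each of the 24 arrays by group, with the mean and SD beside the points (n = 6), triangles for label batch a and circles for label batch b. The widest spread was in female frontal cortex, where Cd74 probe 1 ran from 5.56 to 7.38.

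Within groups the class II transcripts varied together from array to array. Female frontal cortex replicate 5 was highest for Cd74, at 7.38 and 7.36 on its probes, and stood at 6.90 and 5.95 on the H2-Ab1 probes. Male frontal cortex replicate 5 had 7.05 and 6.99 for Cd74 and 6.98 and 5.70 for H2-Ab1, and female frontal cortex replicate 6 had 6.92, 6.75, 6.44 and 5.63. These came from different animals, all in label batch b. Deviations from the mean of group and label batch correlated at 0.88 between the brightest Cd74 and H2-Ab1 probes (Spearman 0.70, n = 24 arrays), and at 0.76 without the 2 arrays farthest from the Cd74 median. Over the 4 pairs of kept Cd74 and H2-Ab1 probes it ran from 0.56 to 0.88. This is a description: each pair of values shares its array, its tissue piece and its RNA.

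Of the 13 kept genes on a list of other class II pathway genes, 4 gave the highest correlations with Cd74 when all 24 arrays were used. The beta chain H2-Eb1 correlated with Cd74 at 0.85 (Spearman 0.77), H2-DMb2, part of the peptide exchange factor H2-DM, at 0.82 (Spearman 0.77), H2-DMa at 0.69 and H2-DMb1 at 0.66. Without the 2 farthest arrays these were 0.70, 0.74, 0.51 and 0.62. H2-Eb1 reached its highest level of the series, 6.81, on female frontal cortex replicate 5, against a median of 5.78 over 24 arrays. The order depended on those arrays. Without the 2 farthest the lysosomal protease Lgmn went from 0.40 to 0.66 and Ctss, detected on 7 arrays, from 0.08 to 0.70, both then above H2-DMb1 and H2-DMa. The costimulatory ligand Cd80 went from 0.49 to 0.55, and for the costimulatory ligand Cd86 it was -0.04 and 0.15. The brighter H2-D1 probe gave 0.60 with Cd74 (0.48 without the 2 farthest arrays), but the dimmer H2-D1 probe gave 0.03. B2m gave -0.33 (-0.16 without them) and Tap2 -0.12 (0.06 without them).

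**Figure D4:**
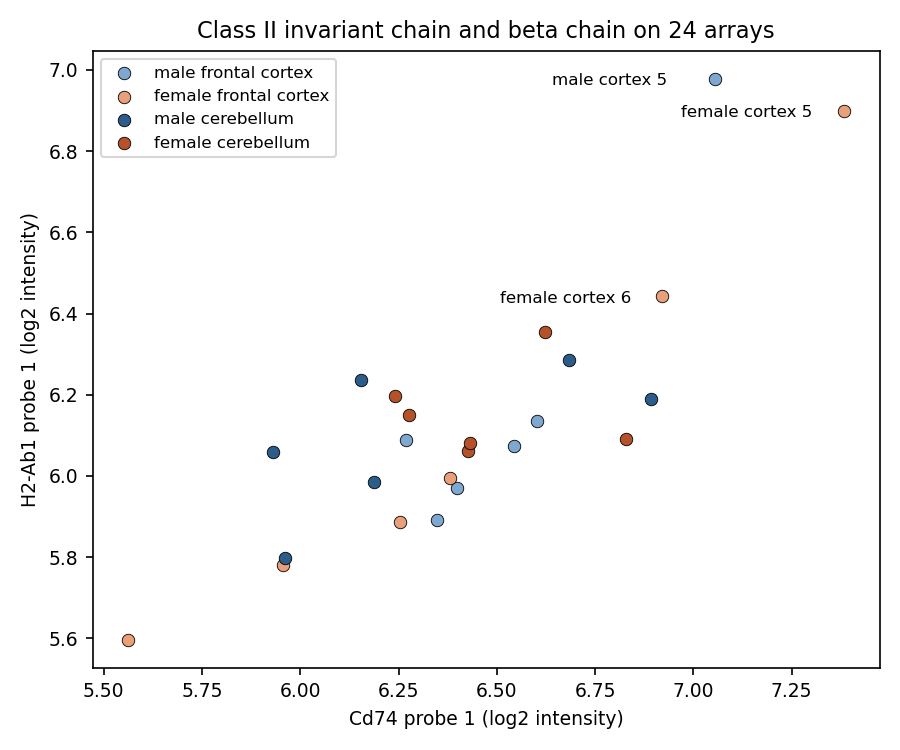
Log2 intensity of H2-Ab1 probe 1 against Cd74 probe 1 on the 24 arrays, coloured by group. Male frontal cortex 5 (7.05 and 6.98) and female frontal cortex 5 (7.38 and 6.90) stood apart at the upper right, with female frontal cortex 6 (6.92 and 6.44) between them and the rest.

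Markers of other cells were read on the same arrays. Of 8 markers of border macrophages, cells that hold class II along vessels and meninges, 3 were kept (Mrc1, F13a1 and Cbr2). Cd163, Lyve1, Pf4, Ms4a7 and Clec12a were detected on at most 3 arrays. Whereas 70.5% of all named genes differed by tissue, none of the 3 kept markers did. Their mean level ran from 5.83 to 6.19 in male frontal cortex, 5.64 to 6.14 in female frontal cortex, 5.89 to 6.18 in male cerebellum and 5.67 to 5.93 in female cerebellum. It was 6.19, the highest of its group, on male frontal cortex replicate 5. On female frontal cortex replicate 5 it was 5.95, and on replicate 6 it was 5.64, the lowest of that group. Meningeal and fibroblast markers averaged 7.91 on male frontal cortex replicate 5, the highest of that group, 7.78 on female frontal cortex replicate 5 and 7.29 on female frontal cortex replicate 6, in groups that ran from 7.44 to 7.91 and from 7.12 to 7.78. No marker of dendritic or B cells was kept, of 9 listed, and Itgax, Xcr1, Cd209a, Clec9a and Cd79b were detected on no array. The part of these cells in the class II values was not tested.

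The genes most like Cd74 in their deviations over the 24 arrays, leaving the members out, were Aebp1 at 0.93, Ntsr2 at 0.93 and Dnlz at 0.88 (Spearman 0.82, 0.85 and 0.80). Those most like B2m were Supt4a at 0.82, Ccdc12 at 0.75 and Emc6 at 0.75. These are the highest of 11439 named genes and are given as a description.

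Agreement of probes differed between genes. Over the 24 arrays the kept pairs of a gene correlated in level at 0.83 for H2-D1, 0.64 for B2m, 0.85 for Cd74, 0.75 for H2-Ab1 and -0.15 for Psmb8. With group and label batch means removed the values were 0.38, 0.59, 0.84, 0.75 and -0.35. Removing these means lowered the value of the H2-D1 pair and hardly moved those of the Cd74 and H2-Ab1 pairs. Probes of a gene are measured on the same arrays and are not replicates of each other.

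Sex was compared within each tissue. None of the 11 probes passed in cerebellum, against 0.156% of all kept probes, none passed in frontal cortex, against 0.171%, and none passed for the interaction of sex and tissue, against 0.109%, all by limma. At an unadjusted p under 0.05 there were 0, 3 and 1 probes in these comparisons. The median absolute sex difference in cerebellum was 0.06 over the 11 probes and 0.07 over all kept probes, and in frontal cortex it was 0.12 and 0.08. The widest 95% interval, that of Cd74 probe ILMN_1221817, reached 0.45 to either side of the difference in each tissue, so smaller sex differences were not resolved for Cd74.

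In frontal cortex the largest sex difference belonged to the dim Psmb8 probe, ILMN_2693940. It ran from 4.71 to 5.27 (median 4.88) in males and from 4.38 to 4.66 (median 4.55) in females, and these arrays did not overlap, as for 0.459% of all kept probes. Female minus male was -0.38 ± 0.09 (SE, limma adjusted p = 0.067). The probe was not above detection on any female cortex array. Some male cortex arrays did not detect it either, so no lower bound on the fold is given. The brighter Psmb8 probe gave 0.08 in the opposite direction (95% interval -0.13 to 0.28, limma adjusted p = 0.93). The dim probe passed under 5 alternatives, cyclic loess, weights for arrays, a block for the label batch, label batch b alone and without male frontal cortex replicate 1, with adjusted p from 0.030 to 0.047.

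H2-D1 and B2m had higher female than male means in frontal cortex without passing. Female minus male was 0.22 (95% interval -0.08 to 0.51) and 0.30 (0.01 to 0.59) for the H2-D1 probes, with limma adjusted p = 0.73 and 0.52. For the brighter B2m probe it was 0.20 (95% interval 0.02 to 0.37, limma adjusted p = 0.43). The label batches differed for each. The second H2-D1 probe gave -0.12 in label batch a and 0.51 in label batch b, and B2m gave -0.03 and 0.31. In cerebellum the same probes gave 0.17, 0.04 and 0.08, and none of the 11 separated the sexes there, as 0.388% of all kept probes did.

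**Figure D5:**
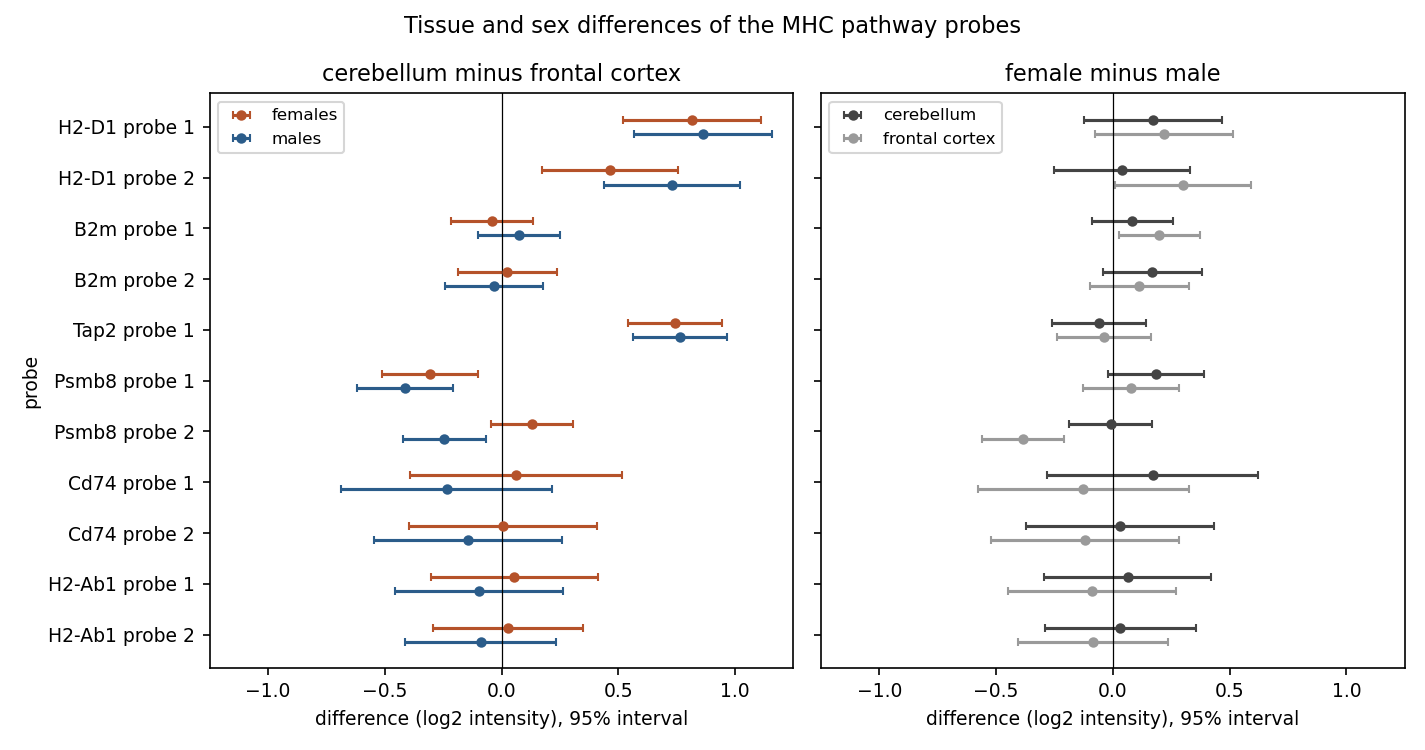
Fitted differences of the 11 kept MHC pathway probes with 95% intervals (limma, log2 intensity), by tissue within each sex on the left and by sex within each tissue on the right. H2-D1 and Tap2 lay above 0 and Psmb8 probe 1 below 0 by tissue in both sexes, and no probe passed by sex after adjustment.

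Other genes of the class I pathway went in both directions between the tissues. Of 29 further class I and class I-like chains 10 were kept, and 4 were higher in cerebellum, 3 lower and 3 did not pass, with a median of 0.02 against 0.03 over all named genes, of which 70.5% passed. H2-T10 (0.73), the neonatal Fc receptor chain Fcgrt (0.59) and H2-T23 (0.47), which encodes the NK receptor ligand Qa-1, were higher. H2-Bl, also among the 4 higher, was detected on all 12 cerebellum arrays and on 0 frontal cortex arrays. It was thus kept only through the tissue where it is high, and its call adds no support. Only a bound is given for it: H2-Bl averaged 5.27 in cerebellum, at least 1.43-fold above the dimmest detected level of the cortex arrays. H2-M3, which presents formylated peptides, was lower by -0.71 and the lipid presenter Cd1d1 by -0.45, and H2-Q7 gave 0.04. H2-Bl, H2-T10 and H2-T23 belong to a family of near-identical genes, and cross-hybridisation among them was not tested.

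Among 10 genes of peptide supply and loading 7 were kept, with 1 higher, 4 lower and 2 not passing (median -0.13). The share of all named genes that passed in either direction was 70.5%. Tapbp, the tapasin that bridges class I to the transporter, was higher by 0.37 (limma adjusted p = 0.0082), in the direction of Tap2. Psmb10, the remaining catalytic subunit of the immunoproteasome, was lower by -1.27, and the proteasome activator subunit Psme1 by -0.84, in the direction of Psmb8. Tapbpl was lower by -0.34 and Pdia3 by -0.13, while Psme2 (-0.07) and Calr (-0.10) did not pass. The constitutive 20S proteasome gave a median of -0.04 over 11 kept of 14 genes, with 1 higher, 3 lower and 7 not passing. Of its catalytic subunits Psmb5 (-0.37) was lower, and Psmb6 (0.10) and Psmb7 (-0.03) did not pass. Psmb1 (-0.62), a subunit that is not catalytic, was also among the lower ones.

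Of 15 other class II pathway genes 13 were kept, and 2 were higher in cerebellum, 7 lower and 4 not passing, with a median of -0.16. Over all named genes 70.5% passed in either direction, so this count is near the share of all genes. The peptide exchange chain H2-DMa was lower by -1.84 (limma adjusted p = 9.7e-18), Cd86 by -0.70, H2-DMb2 by -0.66 and H2-DMb1 by -0.35. The protease Ctsl was higher by 0.58 and the thiol reductase Ifi30 by 0.36. H2-Eb1 gave -0.09 (limma adjusted p = 0.64). The H2-Ea probe was detected on no array, and H2s strains are known not to make this chain.

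Microglia, the resident macrophages of the brain, express H2-DMa, Cd86 and immunoproteasome genes, and their markers were lower in cerebellum. Whereas 31% of all kept probes were lower, all 14 kept of 16 microglial markers were, with a median of -1.27. Their mean level ran from 7.06 to 7.19 in male frontal cortex, 6.99 to 7.18 in female frontal cortex, 5.74 to 5.91 in male cerebellum and 5.68 to 6.02 in female cerebellum. P2ry12, detected on 15 arrays, averaged 4.62 and 4.73 in male and female cerebellum, near the dimmest detected level, so the filter may have fixed its direction. Itgam was detected on 2 arrays. The part of microglial abundance in the lower values of Psmb8, Psmb10 and H2-DMa was not tested.

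Of the kept markers of vessels, meninges, choroid plexus and red cells, those that passed by tissue averaged over the sexes were higher in cerebellum. H2-D1 and Tap2 were higher there too. In males alone the meningeal marker Slc22a6 was lower (-0.35, limma adjusted p = 0.049). Over all named genes 70.5% passed in either direction, and 36.8% of all kept probes were higher. Among endothelial markers 6 of 11 kept were higher and 0 lower. Their mean level ran from 7.40 to 7.64 in frontal cortex and from 7.66 to 7.81 in cerebellum. Meningeal markers were higher for 4 of 6 kept and lower for 0, and ran from 7.12 to 7.91 in frontal cortex and from 7.87 to 8.24 in cerebellum. Choroid plexus markers were higher for 6 of 7 kept, of which Kcne2 was kept only through cerebellum arrays. Otx2, detected on 15 arrays, averaged 4.73 and 4.53 in male and female cortex, and Folr1, detected on 8, averaged 4.44 and 4.57. These levels were near or below the dimmest detected ones, so the filter may have fixed the direction of Otx2 and Folr1 too. The mean level of the choroid plexus markers ran from 4.58 to 5.44 in frontal cortex and from 5.78 to 8.79 in cerebellum. Red cell markers were higher for 4 of 4 kept, with a median difference of 0.77 (Hba-a1 0.82, Hbb-bs 0.79), and their mean level ran from 8.98 to 10.52 in frontal cortex and from 9.86 to 11.21 in cerebellum. The part of these cells in the H2-D1 and Tap2 values was not tested.

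Regulators of MHC genes changed in both directions. Of 22 listed 14 were kept, with 7 higher, 6 lower and 1 not passing (median 0.09). For these and the interferon response genes below, the share of all named genes that passed in either direction was 70.5%. Nfyc, a subunit of the CCAAT-binding factor NF-Y, was higher by 1.30 and its partner Nfyb lower by -0.77. The interferon signal transducer Stat2 was higher by 0.80 and the NF-kB subunit Rela by 0.60, whereas the kinase Jak1 was lower by -0.91 and the class I activator Irf1 by -0.76. Ifnar2 gave -0.04. The master regulators Ciita (class II) and Nlrc5 (class I) and the factor Rfx5 were detected on no array. Interferon response genes, which rise with MHC genes when interferon acts, gave 6 higher, 4 lower and 8 not passing over 18 kept of 35, with a median of 0.01. Irgm1 (0.55) and Gbp2 (0.39) were higher, Ifit2 (-0.75) and Lgals3bp (-0.58) lower, and Igtp (0.06) did not pass. No member of any of these lists passed for sex in either tissue or for the interaction.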

How the data were processed

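Per the labels, 24 samples of total RNA were labelled with biotin and measured on Illumina bead arrays. Per the file headers, the deposited scanner table gives for each probe and array a linear bead intensity, not normalized, the standard error of that signal, other columns counting its beads, and the p-value of detection. The authors' own deposited table holds normalized intensity on a linear scale and served as an alternative. Partek is named in the submitters' processing notes, and its role and version are not given in the sources used here. All log2 values were computed here from the deposited intensity.

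Background correction and quantile normalization of the scanner intensity used neqc (offset 16) of limma 3.58.1 under R 4.3.3, with the packages data.table (version 1.17.8) and statmod (version 1.5.0). A probe was kept if its detection p was below 0.05 on 6 arrays or more, which held for 21113 of 45281. Group means were fitted over all 24 arrays with lmFit and moderated by eBayes (residual degrees of freedom 20, prior 5.82), and contrasts were tested two-sided with Benjamini-Hochberg adjustment over all kept probes. Every adjusted p comes from limma, and the p-values measure the spread between these samples. The procedure was tested on simulated data. Symbols were updated through a RefSeq list, which matched 34807 of the 34885 probes that had a single symbol, while 18 probes had several and 10378 none. Promoters came from RefSeq (GRCm38.p6), aligned with Biopython 1.88.

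The genes and lists were chosen with earlier results of these data known, so their counts are descriptions. All probes of the 10 genes are accounted for, a gene outside them is represented by its brightest kept probe, and up to 6 list members past the threshold and 2 others are named. Correlated class II list genes were chosen after their values were seen. Cd74 sequences are not shown. The labels give both tissues of an animal the same animal identity; deviations of an animal's arrays correlated from -0.30 to 0.24, over 0.1 in 5 of 12 pairs, and the animal entered only as an alternative. Alternatives changed the background correction, scaling, filter, moderation, array weights, blocks, samples in the fit, and left out each array in turn. A fold against a group not detected on any array uses, per array, the lowest level among detected probes. It is a bound only where the brighter group was detected on all of its arrays.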

Additional observations from a re-analysis of the deposited data

Results flagged for a closer look

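Among 44 combinations of a kept MHC pathway probe and a group of 6 arrays, 3 had an array that stood apart from the other 5 by Dixon's criterion at 95%, and chance gives about 1 in 20. The dimmer H2-D1 probe ILMN_2944011 had 6.66 on female cerebellum replicate 6, against 5.81 to 6.09 on the others. Tap2 had 7.23 on female cerebellum replicate 1, against 6.87 to 6.96. H2-Ab1 probe ILMN_2631423 had 6.98 on male frontal cortex replicate 5, against 5.89 to 6.14. Leaving out any of these arrays changed no call of these probes.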

How the results depend on the processing

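Tissue differences averaged over the sexes stayed past the threshold in all 39 alternatives for H2-D1 (0.67 to 0.91 and 0.27 to 0.64 for its probes), Tap2 (0.45 to 0.80) and Psmb8 probe ILMN_1226683 (-0.43 to -0.18). Leaving out 1 array at a time gave 4 calls averaged over the sexes, 4 in females, 4 to 5 in males, 0 by sex in cerebellum, 0 to 1 by sex in frontal cortex and 0 for the interaction. The count by sex in frontal cortex was 1 under cyclic loess, weights for arrays, a block for the label batch and label batch b alone, each time Psmb8 probe ILMN_2693940. The count in females was 2 in label batch b alone. Reversed values were B2m ILMN_1216746 at -0.18 under median scaling and, in label batch a alone, Cd74 at 0.32 and 0.44 averaged over the sexes and ILMN_3089584 at 0.49 in males; the cause was not tested. The count of calls in both directions was 6 in place of 4 under median scaling. With the replicate block, the animal as a random or fixed term, the counts were 4, 4 and 5 by tissue and 0 for the interaction, and no call changed. Label batch a alone holds 2 arrays per group. Signal over background limits Psmb8 probe ILMN_2693940 and the 11 probes not kept.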
